A study of Mus musculus with 36 samples.

Results

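Decitabine was compared with no decitabine in livers that carried a YAP transgene and lacked Tet1, labelled Tet1 -/- YAP Tg. The 6 RNA libraries of this comparison are 3 from decitabine-treated and 3 from untreated Tet1 KO YAP Tg livers. They are 6 of the 12 RNA libraries, and of 36 samples in the whole series, and were chosen by their labelled treatment and genotype. The comparison itself was chosen with earlier results of these data known. The remaining RNA libraries, 3 from YAP Tg and 3 from control livers, give levels beside the comparison and enter no test, and 24 samples of other assays are not analysed here. All mice were C57BL/6 and all groups, controls included, received doxycycline at 50 mg/L in their drinking water. The treated mice were 1 month old, stayed on doxycycline and had decitabine injected into the peritoneum once a day at 0.5 mg/kg over 10 days. For the untreated livers the labels list doxycycline alone, with no vehicle injection and no age for each animal. Neither the promoter that drives the transgene, the species of its YAP, the deleted stretch of Tet1 nor the number of animals behind a group is given in the labels, so p-values measure the spread between these libraries, which may be technical. As far as the series title states a purpose, the comparison asks whether an agent that lowers DNA methylation changes the transcriptional program of YAP when Tet1 is missing.

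Decitabine (5-aza-2'-deoxycytidine) is a cytidine analogue that enters DNA during replication and traps DNA methyltransferases on it, so that methylation at CpG dinucleotides is lost as cells divide. TET1 works in the opposite enzymatic direction to these methyltransferases, by oxidising 5-methylcytosine as a step toward its removal. YAP is the co-activator held back by the Hippo kinase cascade. It works through TEAD transcription factors, and in the liver an excess of it enlarges the organ, drives hepatocytes into division and lowers genes of the mature hepatocyte.

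Because decitabine acts on CpG dinucleotides, the promoter windows of 4 genes that the results turn on are printed first, with CpG in capitals. Each covers 250 bases before to 50 bases after the start of the gene, 300 bases in all, read 5′ to 3′ on the gene's own strand (RefSeq, GRCm38.p6). Gpc3, Vgll3 and Fgfbp1 were higher with decitabine and Cyp2e1 was lower.
Gpc3 (chrX:52613925-52614224, minus strand): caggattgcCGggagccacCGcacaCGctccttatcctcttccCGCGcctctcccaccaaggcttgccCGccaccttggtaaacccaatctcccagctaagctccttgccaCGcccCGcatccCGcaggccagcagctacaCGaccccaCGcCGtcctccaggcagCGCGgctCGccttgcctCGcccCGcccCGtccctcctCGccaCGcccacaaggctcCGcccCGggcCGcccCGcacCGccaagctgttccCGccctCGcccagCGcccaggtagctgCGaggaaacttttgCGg
Vgll3 (chr16:65814939-65815238, plus strand): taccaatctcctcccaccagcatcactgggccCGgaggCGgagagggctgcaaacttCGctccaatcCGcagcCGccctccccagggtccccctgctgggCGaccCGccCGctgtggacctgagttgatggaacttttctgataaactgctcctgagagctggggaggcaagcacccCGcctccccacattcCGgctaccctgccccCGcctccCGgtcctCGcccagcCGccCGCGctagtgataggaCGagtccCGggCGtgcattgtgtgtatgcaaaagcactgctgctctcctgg
Fgfbp1 (chr5:43981750-43982049, minus strand): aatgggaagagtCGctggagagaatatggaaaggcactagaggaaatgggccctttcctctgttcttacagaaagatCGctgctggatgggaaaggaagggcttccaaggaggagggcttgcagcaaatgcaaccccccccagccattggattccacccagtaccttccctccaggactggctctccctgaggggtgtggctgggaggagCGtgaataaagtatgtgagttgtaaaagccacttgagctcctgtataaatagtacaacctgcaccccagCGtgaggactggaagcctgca
Cyp2e1 (chr7:140763569-140763868, plus strand): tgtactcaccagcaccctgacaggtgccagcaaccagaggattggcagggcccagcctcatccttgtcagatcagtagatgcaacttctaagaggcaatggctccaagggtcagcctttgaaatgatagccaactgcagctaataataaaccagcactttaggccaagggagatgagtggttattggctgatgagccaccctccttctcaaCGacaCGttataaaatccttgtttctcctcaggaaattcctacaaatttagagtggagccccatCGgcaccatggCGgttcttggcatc
The Gpc3 window holds 30 CpG and the Vgll3 window 19, whereas the Fgfbp1 and Cyp2e1 windows hold 4 each. The ratio of observed CpG to the number its C and G content would give was 0.919 for Gpc3, 0.612 for Vgll3, 0.190 for Fgfbp1 and 0.217 for Cyp2e1. Genes that rose strongly therefore had CpG-dense as well as CpG-poor promoters.

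The libraries held 25793051, 31733581 and 20692077 reads with decitabine and 22766044, 22347119 and 19082417 reads without. Levels are given as normalised reads, which are reads scaled to a common library total (RPM) after correction for library composition. The deposited values of the decitabine libraries are TPM, which divide by gene length, and those of the untreated libraries do not, so reads were first recovered from both. The deposited unit thus goes with treatment for every gene. Whether the decitabine libraries were also prepared, sequenced or counted apart from the others is not given. Such a difference and decitabine cannot be told apart in this comparison. Where a gene's 3 decitabine reads and its length share a whole divisor, the recovered reads are too small by that divisor. This was so for 90 of 1167 genes (7.71%) with a span that allowed a check, and these were corrected. For other genes a printed rise can only be too small on this account, while a printed fall can be too large. Spread in excess of read sampling, as a coefficient of variation, came to 0.171 to 0.296 for pairs of decitabine libraries and 0.0238 to 0.0288 for pairs of untreated ones. The 45S ribosomal RNA precursor Rn45s took 0.283% to 0.669% of the reads with decitabine and 0.104% to 0.106% without.

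Of 13449 genes tested, limma called 6978 (51.9%) at an adjusted p below 0.05, 3790 of them higher with decitabine (28.2%) and 3188 lower (23.7%). At least a 2-fold difference was seen for 1918 of the higher genes (14.3%) and 1638 of the lower ones (12.2%). The 2 groups of 3 libraries did not overlap for 8459 genes (62.9%). The median log2 fold change of all genes tested was 0.07. Without a scaling factor this median was 0.28, and 67.9% of calls were higher instead of 54.3%, so directions below are relative to the scaled library. With the 3 untreated libraries added together as 1, so that all spread came from the decitabine libraries, 2368 of 13383 genes were called (17.7%), 1270 higher (9.49%) and 1098 lower (8.2%). Counts on that stricter footing are given below as counts with untreated reads added together.

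Tet1 had 1.65, 1.78 and 3.63 normalised reads in the decitabine libraries, against 1.29, 0.988 and 0.605 in the untreated ones. The decitabine libraries lay above the untreated ones, with log2 0.93 (SE 0.30, adjusted p = 0.0327 by limma), and YAP Tg livers had 9.60. The call was lost without decitabine library 3 (log2 0.59, adjusted p = 0.0939), without untreated library 2 (adjusted p = 0.0797), without untreated library 3 (adjusted p = 0.116) and with untreated reads added together (adjusted p = 0.258). Reads of Tet1 were thus not absent in either group labelled Tet1 KO, and since neither the deleted stretch nor the exons these reads came from are given, they do not check the labels. Albumin (Alb), the main hepatocyte product, had 107410.0, 95538 and 114470.0 normalised reads with decitabine and 43801, 41887 and 42423 without. It was higher with decitabine (log2 1.31, adjusted p = 0.0126 by limma), and YAP Tg and control livers had 111950.0 and 101510.0. The call was lost in several settings: without untreated library 1, 2 or 3 the adjusted p was 0.0556, 0.0624 and 0.0634, with the replicate block 0.0864, with no filter on low values 0.272 and with untreated reads added together 0.358.

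The rises with decitabine were led by genes that were low in untreated Tet1 KO YAP Tg and high in YAP Tg livers with intact Tet1, as the plot of levels by library shows. Fgfbp1, a carrier that releases fibroblast growth factors from the matrix, had 22.8, 35.8 and 94.9 normalised reads with decitabine and 0.138, 0 and 0 without. Since the untreated libraries held 3 reads of it in all, its ratio was 972 with a 95% counting interval of 332 to 4715, which covers counting error only. Its 3 decitabine libraries differed among themselves, with library 3 the highest, and all stayed below the YAP Tg mean of 255. Fam83b, a membrane-associated activator of growth factor signalling, had 206, 212 and 161 with decitabine and 2.49, 2.87 and 1.98 without, against 152 in YAP Tg. Gpc3, a heparan sulfate proteoglycan of fetal liver and hepatocellular carcinoma, had 331, 516 and 541 with decitabine and 11, 10.1 and 10.5 without. This is a log2 difference of 5.36 (SE 0.19, adjusted p = 9.75e-07 by limma), and YAP Tg livers averaged 626 ± 7.97, control livers 1.76 ± 0.165 (SD, n = 3 each).

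**Figure D1:**
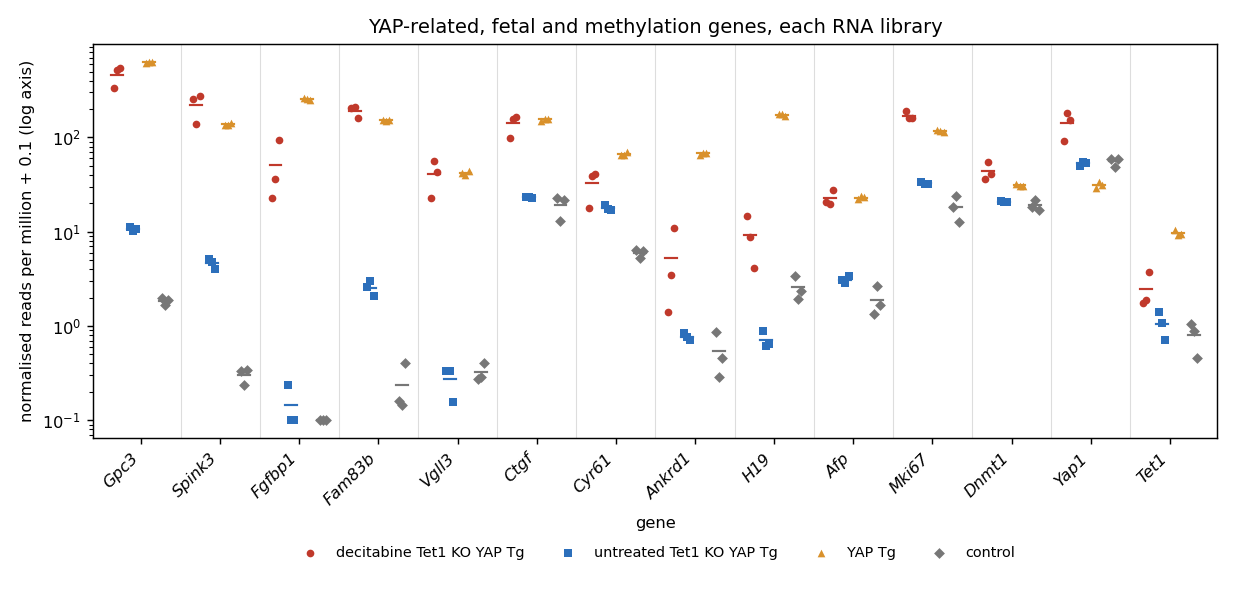
Normalised reads (RPM) plus 0.1, on a log axis, of 14 genes in each of the 12 RNA libraries; each point is 1 library, bars are group means, and decitabine-treated, untreated, YAP Tg and control libraries stand from left to right for each gene. For Gpc3 the decitabine libraries sit at 331 to 541 and the untreated ones between 10.1 and 11, while for Cyr61 the decitabine and untreated libraries overlap.

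The other large rises were of mixed function. Vgll3, a TEAD-binding cofactor, had 22.6, 56.6 and 42.9 normalised reads with decitabine and 0.231, 0.235 and 0.0550 without, and 41.8 in YAP Tg. Spink3, a trypsin inhibitor, had 255, 137 and 277 with decitabine and 4.98, 4.66 and 3.96 without. The surfactant protein gene Sftpd had 44.2, 44.4 and 143 with decitabine and 1.52, 1.88 and 1.98 without. The voltage-gated potassium channel gene Kcnh7, the brain-type fatty acid binding protein gene Fabp7, Ly6d and Lrtm2 rose by log2 4.55, 4.18, 4.40 and 4.23. Mmp9, a matrix metalloprotease made mainly by neutrophils and macrophages, had 13.1, 34.0 and 21.1 with decitabine and 0.646, 0.376 and 0 without. Each of these decitabine libraries was above the YAP Tg mean of 6.12. Slfn4, a myeloid gene that responds to interferon, likewise had 36.9, 11.8 and 16 with decitabine, 0.784, 0.376 and 0.330 without and a mean of 3.53 in YAP Tg. Prn and Cntf were also among the 15 rises named by size, but overlap the genes Prnp and Zfp91Cntf in the table, and both partners were low in the decitabine libraries alone, so their reads are uncertain. Prn had 31.5, 23.2 and 34.5 with decitabine and 0.784, 0.941 and 0.605 without, and its YAP Tg mean was 0.735. Cntf, a neurotrophic cytokine, had 60.9, 49.2 and 43.1 with decitabine and 1.57, 1.93 and 1.59 without, and its YAP Tg mean was 1.32.

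Targets of YAP and TEAD rose unevenly. Beside 28.2% of all genes tested that were higher and 23.7% that were lower, of 27 tested, 13 were higher, 3 lower and 11 not called, with a median log2 fold change of 0.77 beside 0.07 for all genes; with untreated reads added together 8 were higher and 1 lower. Ctgf, a secreted matricellular protein and standard YAP readout, had 99.1, 158 and 164 normalised reads with decitabine and 23.5, 23.2 and 22.8 without. All 3 decitabine libraries lay above the untreated ones (log2 2.54, SE 0.19, adjusted p = 3.31e-05 by limma), and the YAP Tg mean was 155. Cyr61, its matricellular relative, had 17.8, 38.6 and 40.7 with decitabine and 18.9, 17.1 and 17.0 without, so the groups overlapped and the gene was not called (log2 0.77, adjusted p = 0.0611 by limma). That outcome depended on the setting. It was called higher without decitabine library 1 (log2 1.07, adjusted p = 0.000130), without a scaling factor (0.0332), with all 12 libraries in the fit (0.0123), with the replicate block (0.0445), among genes with no whole divisor (0.0450), by edgeR (0.0381) and by DESeq2 (0.0147). In YAP Tg its mean was 67.2. Ankrd1, an ankyrin repeat protein of muscle that YAP strongly induces, had 1.32, 3.34 and 10.8 with decitabine, 0.738, 0.659 and 0.605 without and a mean of 67.5 in YAP Tg. It passed the test (log2 1.88, adjusted p = 0.0267 by limma), with a spread of 1.32 to 10.8 among the decitabine libraries; without untreated library 1, 2 or 3 the adjusted p was 0.0640, 0.0693 and 0.0741, and with untreated reads added together 0.207. Axl, a receptor tyrosine kinase, had 116, 228 and 152 with decitabine and 35.8, 34.8 and 33.3 without. Gadd45b, a growth-arrest and DNA damage protein, had 41.6, 50.6 and 31.9 with decitabine and 2.63, 2.16 and 1.81 without. The 3 members that fell were the tissue factor gene F3, Igfbp3 and Rbms3 (log2 -1.33, -1.23 and -0.96). None of the 3 passed a test for more than a 2-fold fall, which leaves room for reads too small by a factor of 2.

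Components of the Hippo pathway were higher in part. Of 22 tested, 11 were higher and 0 lower, 6 of the higher ones by at least 2-fold (median log2 0.34), beside 28.2% of all genes higher and 23.7% lower. With untreated reads added together 2 were higher, close to the 9.49% of all genes. Yap1 had 91.0, 180.1 and 151 normalised reads with decitabine and 50.0, 54.4 and 54.0 without, a log2 difference of 1.35 (adjusted p = 0.00203 by limma), and 31.3 in YAP Tg against 55.9 in control livers. Reads of the transgene and of the resident Yap1 gene cannot be told apart here. Tead4, a DNA-binding partner of YAP, had 3.23, 4.65 and 5.42 with decitabine, 0.554, 0.753 and 0.660 without and a mean of 11.6 in YAP Tg. Tead1, another partner, had 37.2, 107 and 45.6 with decitabine and 18.8, 15.9 and 18.6 without. The scaffold and membrane-junction genes Wwc1 and Amotl2, both also in the target list, rose by log2 1.59 and 1.62. With untreated reads added together Yap1, Tead1 and Wwc1 were no longer called (adjusted p = 0.0721, 0.101 and 0.0965 by limma).

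Oncofetal liver genes, which are on in the fetal liver and in liver tumours, rose for 10 of 14 tested members and fell for 1, the surface glycoprotein gene Cd24a (median log2 1.65; 8 higher with untreated reads added together). Afp, the albumin relative of the fetal liver, had 20.4, 19.4 and 27.4 normalised reads with decitabine and 3.00, 2.73 and 3.30 without, and the YAP Tg mean was 22.9. Igf2bp3, an RNA-binding protein of fetal tissue, rose by log2 2.54, and Pkm, the pyruvate kinase of growing cells, by 1.49. H19, a maternally expressed imprinted RNA, had 14.6, 8.77 and 4.01 with decitabine and 0.784, 0.518 and 0.550 without. It was higher (log2 2.95, adjusted p = 0.000590 by limma), at levels well below the YAP Tg mean of 174. Its partner at the same imprinted locus, Igf2, was too low to be tested, at 0.257, 0.334 and 0.554 with decitabine and 0.415, 0.376 and 0.330 without. Over all imprinted genes, which methylation holds at 1 active copy, 9 of 18 were higher and 4 lower (median log2 0.55). Of all genes tested 28.2% were higher and 23.7% lower, so the lower count was close to that share. On the footing of untreated reads added together 4 of 15 were higher and 1 lower, beside 9.49% and 8.2% of all genes. Peg3, a paternally expressed zinc finger gene, had 14.4, 27.7 and 47.8 with decitabine and 6.92, 6.82 and 4.23 without. The paternally expressed membrane protein gene Nnat had 0.110, 0.0835 and 0 with decitabine and 13.5, 12.9 and 1.54 without. Nnat was low in untreated library 3 too. Leaving out any of the untreated libraries left 1 imprinted gene called lower. Germline genes that promoter methylation silences in somatic cells stayed near 0: of 28 listed, 16 were in the table and 1 had enough reads to be tested. That gene was Brdt, a testis bromodomain protein, at 0.587, 0.390 and 0.469 with decitabine and 1.80, 2.59 and 2.03 without, so it was lower, not higher (log2 -1.42, adjusted p = 0.000409 by limma). Brdt did not pass a limma test for more than a 2-fold fall (adjusted p = 0.125), which leaves room for reads too small by a factor of 2. Summed over the 16 germline genes, the libraries held 1.95 to 3.19 normalised reads with decitabine and 3.05 to 4.14 without.

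Cell-division genes rose together. Of 26 mitosis genes 25 were higher and none lower, with a median log2 fold change of 2.25, and 24 were higher with untreated reads added together. The gene not called was Kif2c, a kinesin of the centromere, at log2 0.45 (adjusted p = 0.0979 by limma). Summed over the list, the decitabine libraries held 599.9 to 819.5 normalised reads and the untreated ones 119 to 134, beside 471 to 494 in YAP Tg and 50.6 to 106 in control livers. Mki67, the proliferation marker Ki-67, had 189, 161 and 159 with decitabine and 33.3, 32.2 and 31.9 without (log2 2.36, SE 0.11, adjusted p = 3.56e-06 by limma), and 117 in YAP Tg. Top2a, the topoisomerase that untangles chromosomes, had 142, 84.7 and 98.0 with decitabine and 16.5, 17.2 and 16 without. Cdk1, the mitotic kinase, had 38.0, 20.1 and 27.6 with decitabine and 4.11, 3.86 and 2.91 without. All of these separated the groups without overlap. For DNA replication, 22 of 26 genes were higher and 2 lower (median log2 1.18; 11 higher and 1 lower with untreated reads added together). The helicase subunit gene Mcm6 had 89.0, 64.6 and 68.0 with decitabine and 14.3, 13.1 and 12.3 without. The licensing factor gene Cdt1 had 5.32, 10.8 and 6.57 with decitabine and 1.89, 1.46 and 1.15 without. The members that fell were Mcm10 and Pcna (log2 -1.91 and -0.54); Pcna has pseudogene copies, so its reads are uncertain.

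Targets of p53 and genes of the DNA damage response rose as well. Of 23 p53 targets 17 were higher and 1, Sesn1, was lower (median log2 0.90; 7 higher with untreated reads added together). Cdkn1a, the cell-cycle inhibitor p21, had 17.2, 39.2 and 16.3 normalised reads with decitabine and 3.55, 2.64 and 3.90 without, and YAP Tg and control livers had 16.1 and 10.0. The apoptosis gene Pmaip1 (Noxa) had 14.6, 9.97 and 13 with decitabine and 1.34, 1.74 and 1.65 without. Phlda3, an inhibitor of AKT signalling, had 5.61, 5.40 and 9 with decitabine and 0.738, 0.565 and 0.550 without. Btg2, Mdm2 and Ccng1 rose by log2 2.03, 0.47 and 0.53. The p53 targets were summed at 719.8 to 976 with decitabine, 491 to 494 without, 859 to 907 in YAP Tg and 854 to 912 in control livers, so that the untreated Tet1 KO YAP Tg livers were the lowest of the 4 groups. In the DNA damage list 12 of 20 genes were higher and none lower (median log2 0.77; 5 with untreated reads added together). Among the higher ones, the checkpoint kinase gene Chek1 had 10.6, 6.15 and 5.89 with decitabine and 1.94, 1.84 and 1.98 without, and the crosslink repair gene Fanca rose by log2 2.02. Several members of these lists are themselves expressed in dividing cells, and the share of the rise that goes with the mitosis genes was not tested.

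Of the DNA methyltransferases, the targets of the drug, Dnmt1 and Dnmt3a were higher and Dnmt3b was not called. Dnmt1, which copies methylation to the new strand after replication, had 36.2, 54.5 and 40.7 normalised reads with decitabine and 21.3, 20.4 and 20.5 without. The groups did not overlap (log2 1.04, SE 0.16, adjusted p = 0.00113 by limma), and YAP Tg livers had 30.9. Uhrf1, which guides DNMT1 to hemimethylated DNA, had 14.5, 16.4 and 8.06 with decitabine and 4.15, 3.72 and 3.24 without. The de novo methyltransferase gene Dnmt3a had 51.1, 73.5 and 51.1 with decitabine and 29.5, 29.2 and 26.9 without. Dnmt3b, the second de novo enzyme, was not called, at 3.45, 4.76 and 3.58 with decitabine and 2.95, 2.45 and 2.75 without (log2 0.45, adjusted p = 0.0583 by limma). Without a scaling factor it was called, at log2 0.64 and adjusted p = 0.0188. RefSeq names pseudogenes after Dnmt3a and Dnmt3b, so part of their reads is uncertain. Tet2, a TET enzyme that remains in these livers, had 31.4, 41 and 28.5 with decitabine and 29.4, 28.8 and 28.7 without. Tet3 had 22.1, 57.3 and 33.0 with decitabine and 23.8, 21.8 and 24.7 without. The groups overlapped for both genes and neither was called (log2 0.19 and 0.56). Without decitabine library 1 Tet3 was called higher, at log2 0.80 and adjusted p = 0.0165. Over the whole list 9 of 19 were higher and 3 lower (median log2 0.56), beside 28.2% and 23.7% of all genes. With untreated reads added together 2 were higher and 1 lower, beside 9.49% and 8.2% of all genes. Dnmt1, Dnmt3a and Uhrf1 were among those no longer called on that footing (adjusted p = 0.0805, 0.0888 and 0.0514 by limma). Tdg, the glycosylase that excises oxidised methylcytosine, was lower at 1.91, 2.48 and 1.79 with decitabine and 15.3, 16 and 14.8 without, but it has a near copy in the table (Gm9855) that overlaps it.

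Genes that handle cytidine analogues were higher in part. Of 16 tested, 9 were higher and 3 lower (median log2 0.69), beside 28.2% and 23.7% of all genes. On the footing of untreated reads added together 4 were higher and 0 lower, beside 9.49% and 8.2% of all genes. None passed a test for more than a 2-fold fall. The count of lower genes was 5 without decitabine library 1. Dck, the kinase that activates decitabine by its first phosphorylation, had 32.4, 28.4 and 18.4 normalised reads with decitabine and 9.74, 8.61 and 9.01 without (log2 1.45, adjusted p = 0.000815 by limma). Samhd1, a hydrolase that breaks down nucleoside triphosphates, decitabine triphosphate included, had 76.0, 85.1 and 62.5 with decitabine and 23.5, 29.5 and 24.1 without. Slc28a2, a concentrative nucleoside transporter, had 19.2, 13.1 and 15.0 with decitabine and 1.80, 1.6 and 1.26 without. Cda, the deaminase that inactivates decitabine, was lower at 3.70, 3.93 and 3.71 with decitabine and 6.00, 5.18 and 4.89 without (log2 -0.45, adjusted p = 0.0329 by limma). That call was lost without a scaling factor (log2 -0.25, adjusted p = 0.181) and without decitabine library 3 or any 1 of the untreated libraries (adjusted p = 0.0537 and 0.0694 to 0.149). It was also lost with all 12 libraries in the fit (0.219), the replicate block (0.0898), no filter on low values (0.0610) and untreated reads added together (0.347).

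Genes of the interferon response rose in part. Of 29 members 17 were higher and none lower (median log2 0.75; 6 higher with untreated reads added together). The 2'-5'-oligoadenylate synthetases, which sense double-stranded RNA, led the list. Oas1a had 31.0, 19.8 and 15.1 normalised reads with decitabine and 2.77, 3.29 and 2.47 without. Oas2 had 22.7, 34.3 and 20.3 with decitabine and 3.83, 3.76 and 5.28 without. Oas3 had 26.4, 40.1 and 17.7 with decitabine and 3.37, 3.95 and 4.45 without. Their YAP Tg means were 6.06, 7.84 and 6.17, below every decitabine library. Sensors and signal carriers further upstream were mixed: Irf7 rose by log2 1.56, while Ifih1 and Irf1 had log2 values of -0.17 and 0.14 and were not called. In antigen presentation 9 of 17 genes were higher and 2 lower (median log2 0.76; 5 higher and 0 lower with untreated reads added together). The MHC class II gene H2-Aa had 77.5, 39.4 and 81.6 with decitabine and 16.1, 14.2 and 16 without, and H2-Eb1 rose by log2 1.82. Ciita, the master regulator of class II genes, rose by log2 1.34. The class I genes H2-K1 and B2m, which every nucleated cell expresses, were lower (log2 -0.59 and -0.68). Without untreated library 1 or 2 the count of lower genes was 0, and without untreated library 3 or decitabine library 3 it was 1. MHC class II genes mark macrophages, dendritic cells and B cells, and markers of macrophages rose in the same libraries, as given below; their part in this result was not tested.

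**Figure D2:**
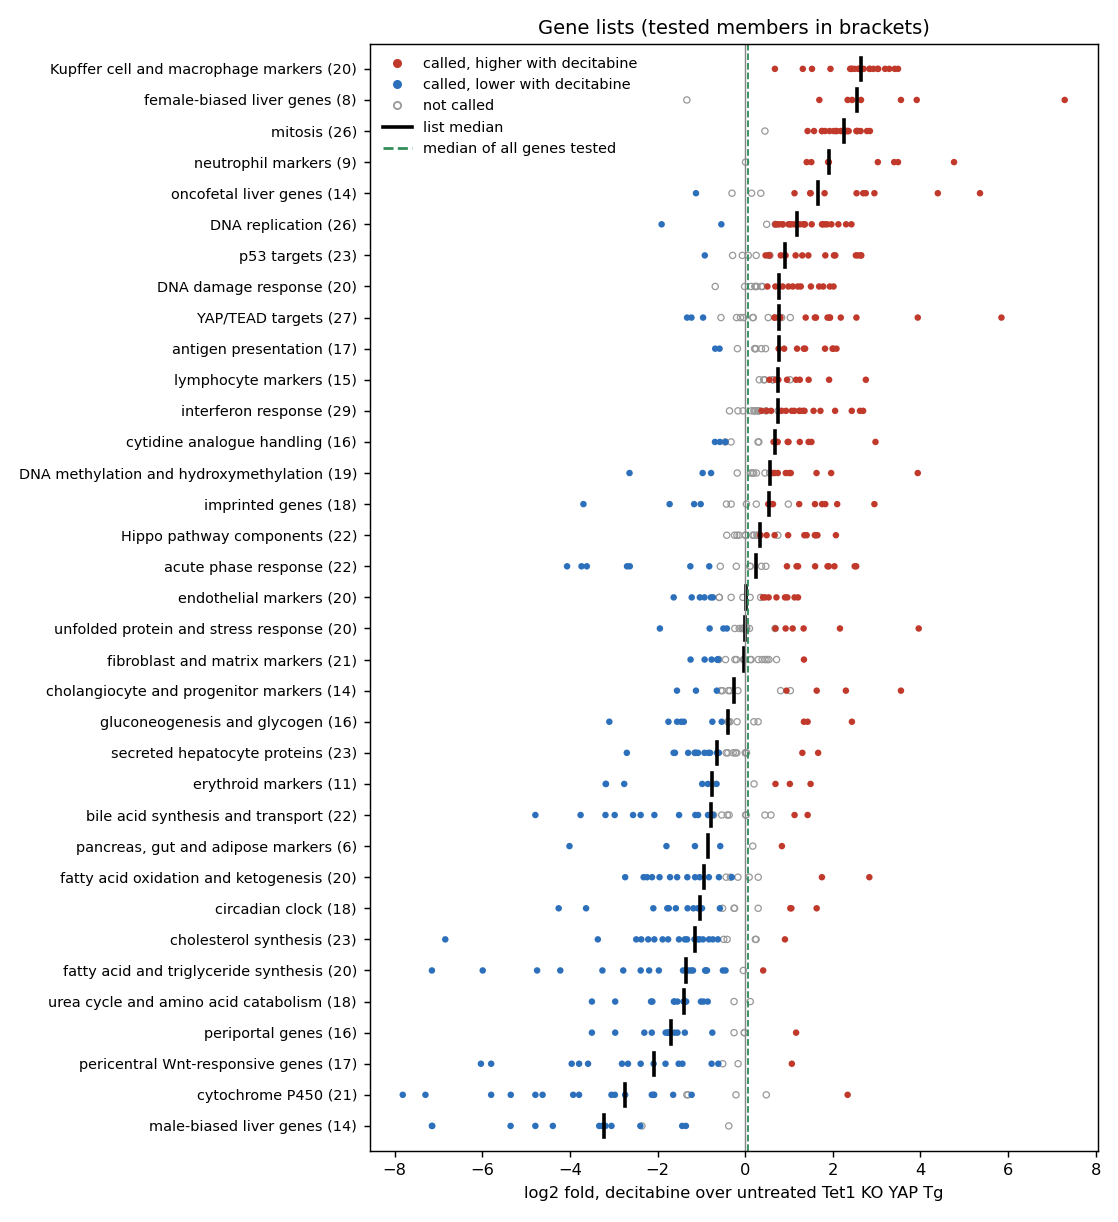
Log2 fold change of decitabine over untreated Tet1 KO YAP Tg for every tested member of each list with at least 5 tested members; filled points were called at an adjusted p below 0.05, open points were not, black bars are list medians and the dashed line is the median of all genes tested. Medians run from -3.23 for male-biased liver genes to 2.65 for macrophage markers.

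Large falls were seen in drug and steroid metabolism of the hepatocyte. Of 21 cytochrome P450 genes 16 were lower and 1, the female-biased Cyp2b9, was higher (median log2 -2.74; 13 lower with untreated reads added together). Summed over the list the libraries held 1240.0 to 2777 normalised reads with decitabine, 12905 to 13106 without, 1977 to 2064 in YAP Tg and 22067 to 22704 in control livers. Cyp2e1, the ethanol-oxidising P450 next to the central vein, had 137, 129 and 35.9 with decitabine and 4704, 4808 and 4935 without. Its log2 difference was -5.80 (SE 0.47, adjusted p = 4.30e-05 by limma), and YAP Tg and control livers had 87.4 and 7036. Cyp2a5, a coumarin hydroxylase, had 2.64, 0.418 and 0.554 with decitabine and 319, 348 and 313 without. Cyp2c29 had 13.9, 4.79 and 6.78 with decitabine and 1266, 1294 and 1320.4 without. The Cyp2a, Cyp2c, Cyp4a and Ces1 families hold near-identical copies, so the split of reads among their members is uncertain. Ces1f, a carboxylesterase, and Car3, the carbonic anhydrase of liver and muscle, had log2 values of -5.75 and -4.86, with YAP Tg means of 2.28 and 50.5 and untreated means of 405 and 1082. Each of these falls also passed a test for more than a 2-fold fall, which leaves room for reads too small by a factor of 2. Cyp2e1 is one of the genes whose whole divisor is not settled. Among the 15 falls named by size, with copy-type genes, genes with a named pseudogene and the 96 genes described below left out, were also Upp2, C4a and Cml5. Upp2, a uridine phosphorylase, had 15.6, 6.91 and 9.13 with decitabine and 279.9, 293 and 310.0 without, and C4a and Cml5 had log2 values of -4.91 and -4.89. In YAP Tg livers Upp2 averaged 36.6.

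Both ends of the liver lobule were affected. Pericentral genes that depend on Wnt signalling fell for 14 of 17 members, with 1 higher (median log2 -2.09; 10 lower with untreated reads added together). Glul, glutamine synthetase, had 69.7, 91.6 and 78.6 normalised reads with decitabine and 564, 555 and 564 without. The glutamate transporter gene Slc1a2 had 1.36, 0.808 and 1.07 with decitabine and 98.1, 100.1 and 107 without. The Wnt feedback genes Axin2 and Lgr5 had log2 values of -1.43 and -1.82 and were called lower, while Rnf43 and Znrf3 had log2 values of -0.51 and -0.16 and were not called. Periportal genes fell for 12 of 16 members (median log2 -1.68; 9 with untreated reads added together). Ass1, argininosuccinate synthase of the urea cycle, had 219.7, 219 and 116 with decitabine and 2040.3, 1956 and 2039 without, with an overlapping copy in the table (Gm5424). Cyp2f2 had 292, 269 and 162 with decitabine and 1024, 1015 and 1036 without. Cps1, the entry enzyme of the urea cycle, had a log2 value of -0.25 and was not called. Over urea cycle and amino acid catabolism 16 of 18 genes were lower and none higher (median log2 -1.39; 10 with untreated reads added together).

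**Figure D3:**
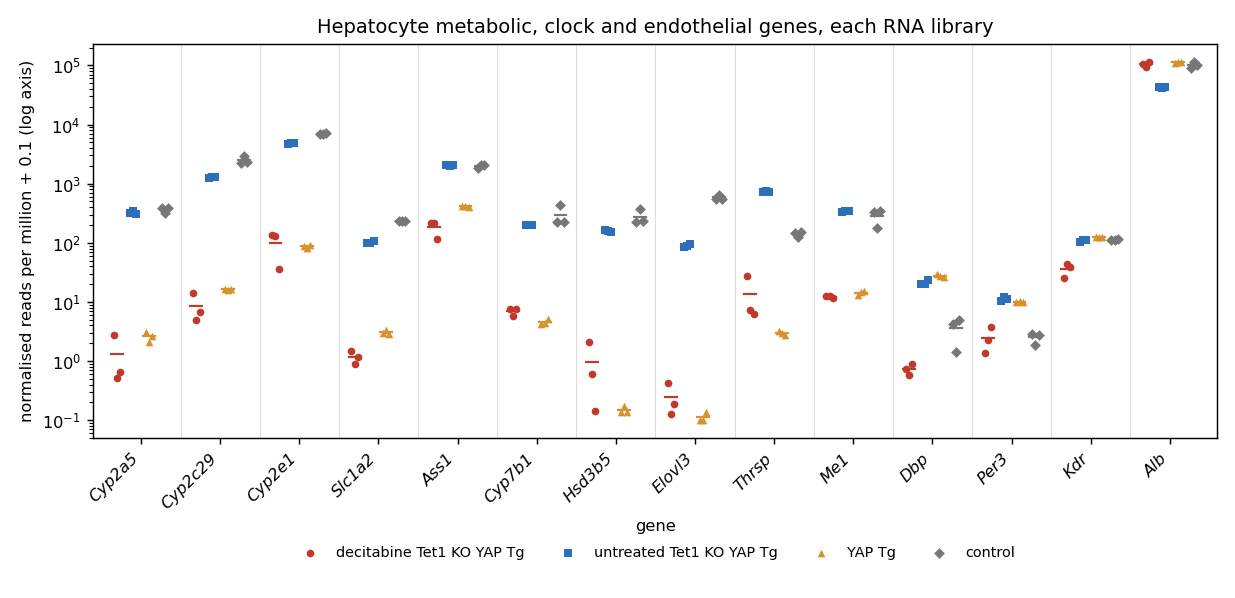
Normalised reads (RPM) plus 0.1, on a log axis, of 14 hepatocyte, clock and endothelial genes in each of the 12 RNA libraries; points are libraries and bars group means, with decitabine-treated, untreated, YAP Tg and control libraries from left to right for each gene. Cyp2e1 lies at 35.9 to 137 with decitabine and at 4704 to 4935 without, and for Dbp the YAP Tg mean of 27.7 lies near the untreated libraries instead.

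Lipid, sterol and bile acid metabolism fell broadly. Of 20 genes of fatty acid and triglyceride synthesis 18 were lower and 1 higher (median log2 -1.35; 11 lower with untreated reads added together). Thrsp, a lipogenic regulator, had 27.8, 7.27 and 6.23 normalised reads with decitabine and 722, 740.0 and 709.6 without. Me1, the cytosolic malic enzyme that supplies NADPH, had 12.3, 12.4 and 11.6 with decitabine and 328, 339.8 and 345 without, and the 3 decitabine libraries agreed closely on it. Acacb, the acetyl-CoA carboxylase that restrains fatty acid oxidation, had 8.95, 8.94 and 4.22 with decitabine and 138, 137 and 143 without. Oxidation genes were lower too, 13 of 20 with 2 higher (median log2 -0.93; 1 higher and 9 lower with untreated reads added together), including their regulator Ppara, at 56.7, 68.6 and 57.6 with decitabine and 278, 291 and 299 without. Fgf21, a fasting and stress hormone, was higher at 19.6, 4.32 and 2.77 with decitabine and 0.277, 0.424 and 0.715 without (adjusted p = 0.00581 by limma, and 0.0790 with untreated reads added together). In cholesterol synthesis 18 of 23 genes were lower and 1 was higher (median log2 -1.16; 10 lower with untreated reads added together). The demethylation step gene Nsdhl had 7.41, 7.74 and 10.5 with decitabine and 86.5, 93.4 and 95.5 without. Idi1 showed the largest fall of the list, at 4.00, 1.75 and 2.64 with decitabine and 356, 372 and 365 without, but is one of the 96 genes low in the decitabine libraries alone, described below. Of 22 bile acid genes 12 were lower and 2 higher (median log2 -0.79; 0 higher and 8 lower with untreated reads added together), and without decitabine library 1 the count of higher genes was 4. The uptake transporter gene Slc10a1 (NTCP) had 70.4, 35.1 and 16.3 with decitabine and 464, 475 and 475 without. Cyp7b1, the oxysterol hydroxylase of the alternative pathway, had 7.45, 5.65 and 7.59 with decitabine and 203, 201 and 203 without. Cyp7a1, the rate-limiting enzyme of the classical pathway, had a log2 value of -0.53 and was not called (adjusted p = 0.0947 by limma).

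Glucose metabolism and plasma protein genes were mixed. Of 16 glucose and glycogen genes 7 were lower and 3 higher (median log2 -0.39; 5 lower and 2 higher with untreated reads added together). Pck1, which commits carbon to gluconeogenesis, had 703, 933 and 500.4 normalised reads with decitabine and 2324, 2312 and 2335 without. Pklr, the pyruvate kinase of liver, had 44.5, 55.7 and 35.4 with decitabine and 386, 386 and 383 without. Igfbp1, an insulin-repressed binding protein of insulin-like growth factors, was higher at 385, 456 and 290.1 with decitabine and 63.9, 69.9 and 70.8 without. Among secreted hepatocyte proteins 13 of 23 were lower and 2, albumin and transferrin, were higher (median log2 -0.65; 0 higher and 3 lower with untreated reads added together). Transferrin (Trf) had 57828, 56358 and 63360.0 with decitabine and 19152, 18519 and 18225 without. Apoa2, an apolipoprotein of HDL, had 1065, 398 and 574 with decitabine and 4394, 3887 and 3934 without. Alb and Trf hold most of the reads of this list, and its summed level was higher with decitabine (223310.0 to 256220.0) than without (162150.0 to 167000.0), although most members were lower. In the acute phase response 9 of 22 genes were higher and 7 lower (median log2 0.25; 4 higher and 5 lower with untreated reads added together). The metallothionein genes Mt1 and Mt2 rose by log2 2.04 and 2.50. The serum amyloid gene Saa1 had 5.98, 5.46 and 5.67 with decitabine and 39.8, 38.5 and 40.9 without. The orosomucoid gene Orm1, which like Saa1 has near copies, had 159, 41.7 and 57 with decitabine and 1176, 1264 and 1225 without. Of 20 genes of the unfolded protein and stress response 6 were higher and 4 lower, close to the 28.2% and 23.7% of all genes. Their median was -0.00, and 0.21 without a scaling factor. With untreated reads added together 3 were higher and 1 lower, and leaving out any of the untreated libraries left 2 lower. Asns, asparagine synthetase of the amino acid response, had 16.8, 13.4 and 13.1 with decitabine and 0.6, 0.518 and 0.275 without, while control livers had 8.05.

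Most clock genes and male-biased genes were lower with decitabine, and most female-biased genes higher. Of 18 clock genes 11 were lower and 3 higher (median log2 -1.03; 4 lower and 0 higher with untreated reads added together). Dbp, an output transcription factor of the clock, had 0.624, 0.473 and 0.810 normalised reads with decitabine and 20.1, 20.2 and 23.0 without, and 27.7 in YAP Tg. Per3, a period gene, had 1.28, 2.20 and 3.71 with decitabine and 10.3, 12.2 and 11 without, with 10.1 in YAP Tg. Nr1d2 had 10.0, 9.13 and 11.3 with decitabine and 131, 131 and 130.2 without. Nr1d2 is one of the 96 genes low in the decitabine libraries alone, for which treatment and counting cannot be told apart. Npas2, Per1 and Nfil3 rose by log2 1.63, 1.03 and 1.05. The labels give no hour of collection, so treatment and time of day cannot be told apart for these genes. Of 14 male-biased liver genes 12 were lower and none higher (median log2 -3.23; 9 with untreated reads added together). Hsd3b5, a steroid dehydrogenase, had 2.02, 0.501 and 0.0427 with decitabine and 164, 155 and 150.4 without. Elovl3, which lengthens very-long-chain lipids, had 0.330, 0.0278 and 0.0853 with decitabine and 85.4, 89.1 and 95.0 without. Of 8 female-biased genes 7 were higher and none lower (median log2 2.54), and 7 of 9 were higher with untreated reads added together. Without any 1 of the decitabine libraries 5 of 6 tested were higher and 1 was lower. The fit with all 12 libraries gave 7 higher and 1 lower. Their YAP Tg sums were 2869.6 to 2941 for the male-biased and 705 to 735 for the female-biased list, beside 4218 to 11056 and 350.2 to 419 with decitabine and 20086 to 20732 and 45.7 to 46.8 without. The Y-linked gene Ddx3y was present in all libraries, at 258, 142 and 136 with decitabine and 196, 202 and 196 without, and none of the 4 Y-linked genes tested was called. Without decitabine library 1 the count of these called lower was 2, and with all 12 libraries in the fit it was 1. Xist, the RNA of the inactive X, had 0.257, 0.223 and 0.171 with decitabine and 0.0923, 12.7 and 3.85 without, so its reads were found mainly in untreated libraries 2 and 3. Its part in the values of sex-biased genes was not tested.

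Markers of macrophages, and in part those of neutrophils and lymphocytes, were higher with decitabine, beside 28.2% of all genes. The counts for neutrophils and lymphocytes depended on the setting. The part of all these cells in the lists above was not tested. Of 20 macrophage and Kupffer cell markers 20 were higher, 19 with untreated reads added together, with a median log2 fold change of 2.65. Their sum was 4816 to 5555 normalised reads with decitabine, 906 to 939 without, 3463 to 3541 in YAP Tg and 605 to 817 in control livers. The macrophage lysozyme gene Lyz2 had 579, 479 and 590.0 with decitabine and 58.7, 56.6 and 51.4 without. The Kupffer cell gene Cd5l had 1641, 1220.1 and 1019 with decitabine and 144, 136 and 134 without. The galectin gene Lgals3 had 56.8, 46.6 and 44.3 with decitabine and 5.08, 4.28 and 3.24 without. In bulk tissue a larger number of such cells and more RNA of each gene per cell cannot be told apart. Neutrophil markers were higher for 8 of 9 tested, for 3 of 11 with untreated reads added together, and for 5 of 6 tested without any 1 of the decitabine libraries. S100a9 had 9.57, 2.37 and 22.3 with decitabine and 0.369, 0.329 and 0.275 without; the granule genes Mpo, Elane, Camp, Ngp and Ltf were too low to test. Lymphocyte markers were higher for 9 of 15, and for 2 of 16 with untreated reads added together, beside 9.49% of all genes. They were higher for 3 of 9 without decitabine library 1 and 2 of 9 without decitabine library 2. Of all genes 28.9% and 26.9% were higher in those 2 settings. Without untreated library 1 or 2 the count was 5 of 15. Ptprc, the surface phosphatase of all leukocytes (CD45), had 276, 193 and 195 with decitabine and 34.2, 31.1 and 30.6 without, while the T cell genes Cd3d, Cd3e and Cd8a were too low to test.

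Markers of resident non-blood cells moved less or in both directions. Endothelial markers were higher for 8 and lower for 6 of 20, beside 28.2% and 23.7% of all genes. Their median log2 fold change was 0.03, and -0.02 with median-of-ratios scaling. None was higher and 1 lower with untreated reads added together, beside 9.49% and 8.2% of all genes. Leaving out decitabine library 3 gave 5 higher, and leaving out untreated library 1, 2 or 3 gave 3, 4 and 4. Kdr, the VEGF receptor of endothelium, had 24.9, 43.9 and 39.4 normalised reads with decitabine and 104, 113 and 113 without. Lyve1, a hyaluronan receptor of sinusoids, had 40.8, 57.7 and 25.3 with decitabine and 17.1, 17.0 and 15.9 without. Fibroblast and matrix markers were lower for 6 and higher for 1 of 21, beside 23.7% and 28.2% of all genes. None was lower with untreated reads added together. The median was -0.04, and 0.13 without a scaling factor. Without decitabine library 1 or 2 the higher count was 4 and 3, and without untreated library 2 or 3 the lower count was 3. The one rise was Vim, the intermediate filament vimentin, at 43.6, 64.5 and 59.2 with decitabine and 23.4, 21.0 and 19.95 without, while the collagens Col1a1 and Col3a1 had log2 values of 0.72 and -0.20 and were not called. Cholangiocyte and progenitor markers were higher for 4 and lower for 3 of 14, close to the 28.2% and 23.7% of all genes, with 1 lower without untreated library 1. With untreated reads added together 2 were higher and 0 lower. Spp1, osteopontin, had 1706, 868 and 2753 with decitabine and 331, 328 and 314 without. The stem-cell surface gene Prom1 had 40.4, 19.5 and 36.5 with decitabine and 2.54, 2.02 and 1.92 without. The bile duct keratin gene Krt19 had 0.807, 0.585 and 0.597 with decitabine and 1.38, 1.41 and 0.769 without and was not called. Erythroid markers were lower for 6 and higher for 3 of 11, beside 23.7% and 28.2% of all genes. With untreated reads added together 3 were lower. The alpha-globin genes Hba-a1 and Hba-a2 hold identical values, 7.92, 6.40 and 6.10 with decitabine and 70.3, 61.8 and 64.4 without, and count as 1 measurement. Of pancreas, gut and adipose markers 6 could be tested, 4 lower and 1 higher; Apoa4 and Fabp2, which hepatocytes also express, were among the lower ones, and the defining genes Cpa1, Vil1, Adipoq and Lep were too low to test.

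A set of genes was far lower in the decitabine libraries than in every other library. Among 8545 genes with at least 5 normalised reads in all of the other 9 RNA libraries, 96 (1.12%) had a decitabine mean below an eighth of the lowest other library. Their decitabine levels ranged widely, for example 40.3, 24.9 and 27.0 for Tmed2, a transport protein of the early secretory pathway, with 340.3, 350.0 and 347 in the untreated libraries. Gapdh, a glycolytic enzyme often used as a reference gene, had 1.39, 1.75 and 1.49 normalised reads with decitabine and 536, 541 and 547 without, beside 364 in YAP Tg and 519 in control livers. Ppia, a cyclophilin, had 2.13, 1.28 and 1.41 with decitabine and 502, 543 and 514 without. The gamma-actin gene Actg1 had 1.06, 2.00 and 1.66 with decitabine and 106, 95.4 and 94.4 without. Prnp, the prion protein gene, had 1.10, 0.613 and 1.07 with decitabine and 141, 136 and 140.4 without. Of 90 cytosolic ribosomal protein genes at that level, 31 were in the set, for example Rps12 at 8.80, 6.96 and 7.38 with decitabine and 239, 259 and 239 without. A pseudogene named after the gene is listed in RefSeq for 45 of the 96 (46.9%) and for 231 of the other 8449 (2.73%). An overlap with a second gene in the table was found for 33.3% of the set, against 18.9% of the others, and overlap and pseudogene may coincide. Of the 96 genes, 24 had neither a copy-type symbol, a named pseudogene nor an overlap. Among all 310 tested genes with a named pseudogene, 180 were called lower and 53 higher, and their median log2 fold change was -0.74 beside 0.08 for all other genes. Reads that match several places equally well are counted or dropped by settings that the sources used here do not give. For genes with such reads, and for the 24 genes as well, treatment and counting cannot be told apart. Reads recovered too small by a whole divisor would also lower genes of the set. That divisor was not settled for Sord, for example, at 33.4, 25.9 and 28.6 with decitabine. Its untreated mean was 1239 and its YAP Tg mean 394. The part of unsettled whole divisors in the set was not tested. The set makes up 96 of the 1638 falls of at least 2-fold (5.86%).

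**Figure D4:**
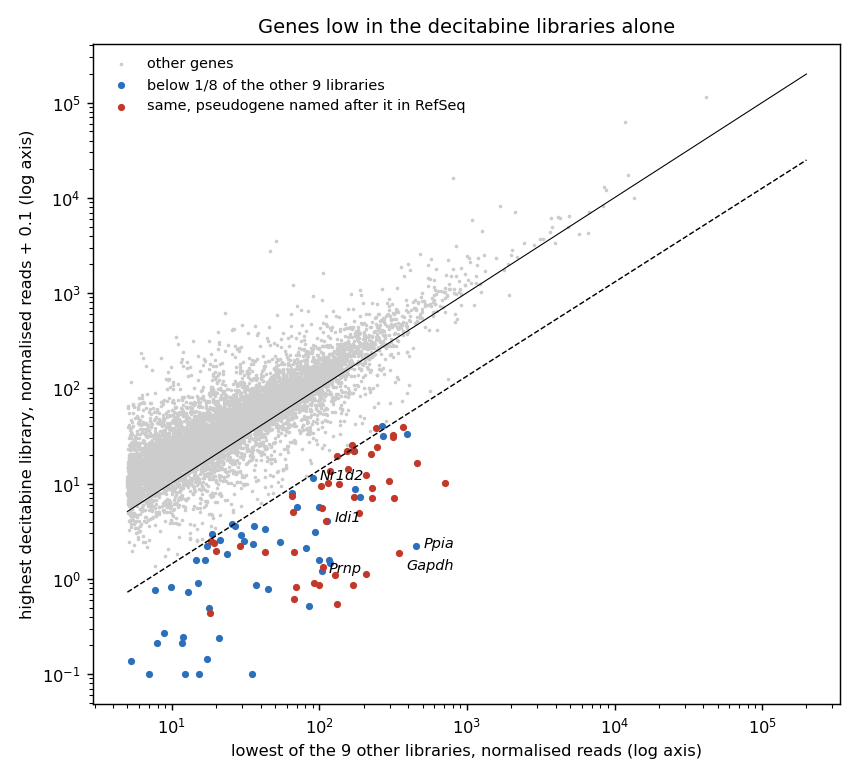
Highest of the 3 decitabine libraries (normalised reads plus 0.1) against the lowest of the 9 other RNA libraries for 8545 genes, both on log axes; the solid line marks equal levels, the dashed line an eighth, blue points are the genes of the set and red points those with a pseudogene named after them. Gapdh and Ppia lie near 2 on the vertical axis and above 300 on the horizontal one. The set is defined by the decitabine mean, so some of its points lie above the dashed line.

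Promoters of changed genes held fewer CpG than those of genes not called. The median ratio of observed to expected CpG was 0.625 in the 1466 promoters at hand of genes higher by at least 2-fold, 0.700 in 1276 of genes lower by at least 2-fold, 0.769 in genes called with a smaller difference and 0.785 in genes not called. Among genes with under 1 normalised read in the untreated libraries the medians were 0.553 for the higher genes and 0.615 for those not called, and among genes at 20 or more they were 0.668 and 0.826. For genes lower by at least 2-fold they were 0.340 and 0.731 in the same classes. In both classes between, at 1 to 5 and 5 to 20 normalised reads, higher and lower genes also had smaller medians than those not called. Lower genes had the smallest median in the classes under 5 normalised reads, and higher genes in those from 5 up. These medians are a description with no test. The TEAD motif letters GGAATG or their complement CATTCC, searched on both strands, occurred in 12.7% of the promoters of higher genes, 11.9% of lower genes and 12.1% of all tested promoters. The Vgll3 window above holds 1 such match and the other 3 windows hold none.

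The authors' deposited fold changes of this comparison differ from those above by gene length. Over 4116 genes above 20 in both groups, the log2 fold change in the authors' deposited table equalled the log2 ratio of the deposited columns up to a constant of 0.08 with an SD of 0.00672, so it set TPM against values not divided by length. In the shortest quintile of genes (median recovered length 1047 bases) the deposited log2 fold change exceeded the recomputed one by a median of 1.25, and in the longest quintile (median 6373 bases) the difference was -1.29. Of 6963 tested genes that the authors' deposited table calls at a false discovery rate below 0.05, 1456 (20.9%) had the opposite sign on recovered reads and 444 were called in the opposite direction. Another 3824 were called in the same direction. Several genes of DNA methylation are long and change sign in this way. For Dnmt1 the authors' deposited table gives -0.24 beside 1.04 here, for Dnmt3a -0.94 beside 1.00, and for Tet1 -0.99 beside 0.93. For Mki67 it gives 0.36 beside 2.36, and for the short gene Cda 1.10 beside -0.45. Rises such as those of Gpc3 (5.58 in the authors' deposited table beside 5.36 here) and Ctgf (2.66 beside 2.54) hardly depended on the unit.

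**Figure D5:**
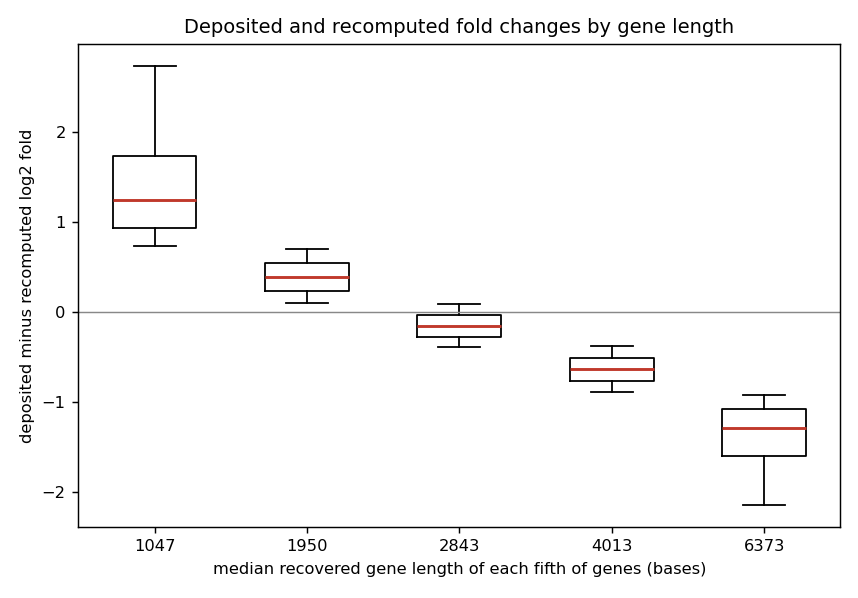
Deposited minus recomputed log2 fold change of decitabine over untreated Tet1 KO YAP Tg in quintiles of genes by recovered length; red lines are medians, boxes span the quartiles, whiskers the 5th to 95th percentile, and the labels below give the median length of each quintile in bases. The medians run from 1.25 in the shortest to -1.29 in the longest quintile.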

How the data were processed

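Liver RNA was measured in 12 libraries, 3 for each of 4 groups. Per the submitters' processing notes, reads were aligned to mm10, and TopHat2, featureCounts and edgeR are named without versions, order or options. The values deposited for untreated, YAP Tg and control libraries are a normalised signal, whole multiples of 1 read step per library, which matches reads scaled to a library total (RPM) with TMM factors. The values deposited for decitabine libraries are TPM. The authors' deposited table also holds log2 fold changes, mean log2 expression, a likelihood ratio score, p-values and false discovery rates, per the file headers.

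Reads were recovered from both units. All non-zero values of the scaled libraries were whole multiples of the step (100%, tolerance 0.02 reads at low counts). In the decitabine libraries the smallest gene length that gave whole reads in all 3 was found for 17105 of 17105 genes, with a largest deviation of 0.00102 reads. The recovery and the fit were tested on simulated data. Counts here are reads without molecular identifiers, so intervals cover counting error only. Since raw counts are not used here, a count test is an alternative and not the main test.

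TMM factors (edgeR 4.0.16) over 12 libraries gave normalised reads. Genes with at least 0.5 in 3 of the 6 libraries were tested on log2(value + 0.5), a scale that understates changes of low genes, with limma 3.58.1, an intensity trend, 3 libraries against 3, two-sided, Benjamini-Hochberg adjusted. The 6 libraries alone were fitted because the decitabine libraries spread more than the others. Named genes were the 15 largest rises and falls with 5 or more normalised reads in the higher group and no overlap. Up to 4 genes of each list and genes named for their role were added. Copy-type symbols and genes with a named pseudogene were left out of the rises and falls. So, chosen after seeing the data, were genes with a decitabine mean under an eighth of the lowest other library. Together this set aside 63 falls larger than the smallest named one. Other genes of lists and of the latter set were named after their values were seen. Some genes that the rule names are not reported here. The comparison, the 37 lists and the rules were chosen with earlier results of these data known. Same-numbered libraries did not deviate together (r of -0.05, -0.06 and -0.05 across genes). Symbols of 18500 of 18591 genes matched RefSeq (GRCm38.p6), and 13995 had a promoter entry.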

Additional observations from a re-analysis of the deposited data

How the results depend on the processing

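Among 6978 genes called, other pseudocounts, median-of-ratios scaling (6878), no scaling (7639), no filter (7484), a filter at 5 (5423), all 12 libraries in the fit (8236), edgeR's quasi-likelihood test (6949) and DESeq2 (6980) stayed within 1.5 times. Leaving out 1 library gave 5098 to 7883 calls. The fit with the replicate number as a block gave 6472 calls, 3499 higher and 2973 lower; the numbers do not pair the libraries. A filter at 5 normalised reads left 1268 genes higher by at least 2-fold, against 1918. Adding the untreated libraries together left 2368 calls, 1270 higher (all of them by at least 2-fold) and 1098 lower; the lone sum was assumed to vary like the decitabine libraries. Keeping the 1218 genes in which no whole factor was possible left 671 calls, 460 higher and 211 lower, 236 and 104 by at least 2-fold. Fewer genes were tested there, but the shares moved too. Of these genes 37.8% were higher and 17.3% lower, against 28.2% and 23.7% in the main fit. Their median log2 fold change was 0.25, against 0.07. The part of unsettled whole divisors in this shift was not tested. Of alternatives chosen after seeing the data, testing falls against 2-fold left 833 falls, all past 2-fold, and 4284 calls in all. That test left 14 of 21 cytochrome P450 genes lower and 6 of 18 genes of the urea cycle and amino acid catabolism. It left 7 of 23 genes of cholesterol synthesis and 2 of 23 secreted hepatocyte proteins lower. Leaving out copy-type genes gave 6072 calls and leaving out overlapping genes 5633. The deposited columns in mixed units gave 9682 calls, 4552 higher and 5130 lower, 2933 and 3167 by at least 2-fold. In that setting 9 named genes reversed: Tead1 (log2 -0.39), Sptb (-0.27), Fcgr2b (0.36), Tet1 (-0.69), Tet2 (-1.71), Tet3 (-1.58), Dnmt1 (-0.36), Dnmt3a (-1.04) and Cda (0.97). No other setting reversed a named gene. With untreated libraries added together 31 of 155 named genes lost their call, and in the test of falls against 2-fold 12 of 160. Depth limits the low genes: Fgfbp1 and Hao2 had 3 untreated reads each.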
